A study of Mus musculus with 6 samples.

Results

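Squamous keratin, envelope and kallikrein genes were examined in RNA from MMTV-PyVT mammary tumor cells. In this transgenic mouse line a mammary tumor virus promoter drives the polyoma middle T oncogene in the mammary epithelium. The members were the keratins Krt6a, Krt6b and Krt16, the envelope proteins Evpl and Ppl and the kallikreins Klk8 and Klk10, 7 genes chosen by name. They were chosen because their levels differed between the groups in these same libraries, so their difference between the groups is given as a description without a test. Of these, 6 had a row among the 10995 rows of the count table, and Klk10 had none and was not analysed here. All libraries came from FVB/NJ mice carrying the transgene, 3 labelled wild type for Nr4a1 and 3 labelled Nr4a1-/-, and the groups were age matched. No label ties a library to an animal, so the spread between libraries may be technical. The transgene acts in the epithelium, and a tumor also holds other cells, in which its expression was not examined here.

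Stratified epithelia such as the epidermis protect themselves with a cornified envelope, a protein shell that is crosslinked beneath the membrane of the outermost cells. Envoplakin and periplakin, encoded by Evpl and Ppl, are plakin partners that help to start this shell and tie it to keratin filaments. Krt6a and Krt6b are type II keratins and Krt16 is their type I partner, and all of them are induced in wounded or hyperproliferative epithelium and in squamous metaplasia. Kallikreins are secreted serine proteases, and in skin several of them cleave the desmosomal links that hold cornified cells together.

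Total counts per library ranged from 19569173 to 24188875. The targeted gene Nr4a1 was not lower with the knockout label, with 711, 406 and 358 counts in the wild type libraries (replicates 1, 2 and 3) and 612, 847 and 746 in the knockout libraries. Its log2 fold change was 0.49 (SE 0.32, edgeR quasi-likelihood test, adjusted p = 0.59), and the exact permutation p was 0.20 (two-sided, smallest possible 0.1). Which part of the gene the allele removes is not known here, so each direction given is between libraries as labelled. Wild type replicate 1 stood apart on the first principal component of log2 CPM, at -51.3 against -2.22 to 28.8 in the others. All 12 of 12 epithelial markers had rows, as did 10 of 10 macrophage, 9 of 9 basal and myoepithelial, 7 of 10 fibroblast and 5 of 6 pericyte markers. The epithelial markers' summed level was 6810 to 7857 CPM with the wild type label and 4323 to 5394 CPM with the knockout label, and the groups did not overlap. Of the genes that mark cornified skin, Krt1, Krt10, Krt2, Lor, Flg, Dsg1a, Dsc1 and Krtdap had no row and 1 of 9, Sbsn, had one, at 8.47 to 22.4 CPM.

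Reads of the keratins cannot be assigned with certainty, because these genes have close copies. Krt6a (chromosome 15, 101689910 to 101694307, minus strand, GRCm38) and Krt6b (chromosome 15, 101676023 to 101680287, minus strand) lie 9622 bases apart. Their coding sequences, 1659 and 1662 bases long, were identical at 97.8% of 1659 aligned bases. The longest identical run covers coding bases 34 to 313 counted from the start codon, 280 bases, longer than a 150-base read, and it is shown because a read inside it fits both genes.
Krt6a and Krt6b: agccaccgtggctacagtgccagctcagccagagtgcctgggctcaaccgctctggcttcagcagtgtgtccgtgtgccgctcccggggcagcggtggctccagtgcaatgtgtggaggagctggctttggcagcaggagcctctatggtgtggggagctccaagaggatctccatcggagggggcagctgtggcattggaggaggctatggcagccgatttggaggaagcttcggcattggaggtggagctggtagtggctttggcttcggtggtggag
By contrast, the 60-base coding window in which the genes differ most, at coding bases 817 to 876 of each gene, holds 10 differences, shown in capitals. It is shown because reads over it can tell the copies apart.
Krt6a: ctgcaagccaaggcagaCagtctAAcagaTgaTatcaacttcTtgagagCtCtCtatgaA
Krt6b: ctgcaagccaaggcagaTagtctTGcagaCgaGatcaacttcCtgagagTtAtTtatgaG
Of the 31-base words in the longest annotated transcript, 62.8% of those of Krt6a, 57.0% of those of Krt6b and 51.9% of those of Krt16 also occur in transcripts of other genes. Krt6a shared 46.2% of its words with Krt6b. Krt16 (chromosome 11, 100246091 to 100248902, minus strand) shared 32.2% with the pseudogene Gm11597 and 19.7% with Krt14. Evpl (chromosome 11, 116220559 to 116238077, minus strand) and Ppl (chromosome 16, 5086291 to 5132421, minus strand) shared 0.0% each, so their counts carry no such doubt.

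The 3 stress keratins stood lower on average with the knockout label, but in at least 1 of the groups each varied by more than the group means differed. The highest library exceeded the lowest of its own group by up to 9.49 times for Krt6a, 62.4 times for Krt6b and 5.58 times for Krt16, where the wild type mean exceeded the knockout mean by 4.32, 5.98 and 3.50 times. The unit is CPM, a count divided by its library's TMM-scaled total and brought to a common size. In these bulk samples, fewer cells of a type and less RNA per cell cannot be told apart. Krt6a stood at 28.0, 85.5 and 20.7 CPM in wild type replicates 1, 2 and 3 and at 2.67, 3.06 and 25.3 CPM in knockout replicates 1, 2 and 3. Knockout replicates 1 and 2 lay below every wild type library, knockout replicate 3 lay within the wild type range, and wild type replicate 2 was the highest of all. The group means were 44.7 CPM ± 35.5 (SD, n = 3) for wild type and 10.4 CPM ± 13.0 (SD, n = 3) for knockout, a log2 fold change of -2.12 (SE 1.05). Krt6b stood at 11.5, 60.3 and 10.5 CPM with the wild type label and 0.205, 0.755 and 12.8 CPM with the knockout label, with the same libraries low, high and in between. Its level in knockout replicate 1 rests on 5 counts, with an exact 95% Poisson interval of 0.0667 to 0.479 CPM that covers counting error only. That of knockout replicate 2 was 0.447 to 1.19 CPM, and both intervals lay below the level in knockout replicate 3. The means of Krt6b were 27.4 CPM ± 28.5 (SD, n = 3) in the wild type group and 4.59 CPM ± 7.13 (SD, n = 3) in the other, a log2 fold change of -2.61 (SE 1.46). Krt16 stood at 10.0, 56.0 and 10.1 CPM with the wild type label and at 4.52, 4.99 and 12.2 CPM with the knockout label. These values average 25.4 CPM ± 26.5 (SD, n = 3) for wild type and 7.24 CPM ± 4.31 (SD, n = 3) for knockout. Its log2 fold change was -1.82 (SE 0.83), and wild type replicate 2 was again the high library and knockout replicate 3 the one inside the wild type range.

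Without knockout replicate 3 the groups of all 3 keratins did not overlap, as was then so towards lower values for 17.9% of all rows. Without wild type replicate 3 the groups of Krt6a did not overlap either, against 14.1% of all rows. Over all rows, 8.84% had the arrangement of these keratins, in which knockout replicates 1 and 2 lay below every wild type library and knockout replicate 3 did not. The size of the difference turned on single libraries. For Krt6a the log2 fold change was -1.24 when wild type replicate 2 was left out and -3.96 when knockout replicate 3 was left out. The same omissions gave -1.28 and -5.83 for Krt6b, and -0.48 and -2.42 for Krt16. When the counts of Krt6a and Krt6b were summed as 1 gene, the log2 fold change was -2.28. Reads that also fit other genes, such as Gm49428 and Gm5478, are outside this sum. The ratio of Krt6a to Krt6b counts within a library was not fixed, at 1.42 to 2.43 in the wild type libraries and 13.0, 4.06 and 1.98 in knockout replicates 1, 2 and 3. That of Krt6a to Krt16 was 1.53 to 2.79 in the wild type libraries and 0.591, 0.613 and 2.07 in those knockout replicates. Per kilobase of annotated exon, the keratins of this set were minor ones. Krt6a averaged 18.5 and 4.28 CPM per kilobase with the wild type and knockout labels, where Krt14, a keratin of basal cells, averaged 392 and 276. Krt16 averaged 16.2 and 4.63, where Krt17 averaged 405 and 361. Krt17, which is coinduced with Krt6 and Krt16 in wounds, did not share their profile, since its lowest library was wild type replicate 1, at 153 CPM against 525 to 921 CPM in the others.

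**Figure D1:**
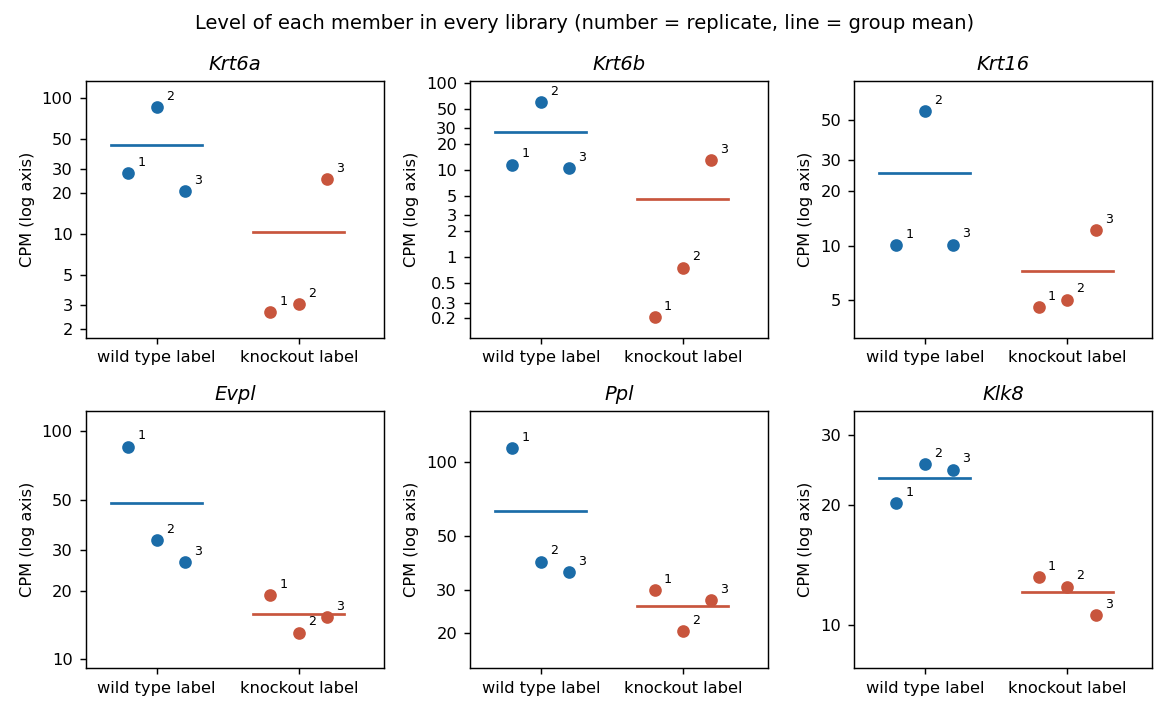
Level in CPM on a log axis for each of the 6 listed members, in the 3 libraries labelled wild type (blue) and the 3 labelled knockout (red). Points are libraries with their replicate number and lines are group means, and the groups separate for Evpl, Ppl and Klk8 while knockout replicate 3 sits in the wild type range for the keratins, at 25.3 CPM for Krt6a.

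The envelope plakins had a different arrangement, with no overlap between the groups and 1 high library in the wild type group. Evpl stood at 85.7, 33.3 and 26.6 CPM in the wild type replicates 1, 2 and 3 and at 19.1, 13.1 and 15.3 CPM in the knockout replicates 1, 2 and 3. Every knockout library lay below every wild type library, the lowest wild type library being 1.39 times the highest knockout library. The group means were 48.5 CPM ± 32.4 (SD, n = 3) for wild type and 15.8 CPM ± 3.04 (SD, n = 3) for knockout, a log2 fold change of -1.62 (SE 0.48). Ppl stood at 114, 39.2 and 35.4 CPM in the wild type replicates and at 30.1, 20.4 and 27.3 CPM in the knockout replicates. Its means were 63.0 CPM ± 44.5 (SD, n = 3) for wild type and 25.9 CPM ± 4.98 (SD, n = 3) for knockout, a log2 fold change of -1.28 (SE 0.49). Its groups did not overlap either, but by a narrower gap, the lowest wild type library being 1.18 times the highest knockout library. In both genes wild type replicate 1, the library that stood apart on the first principal component, was the high one, at 3.22 and 3.23 times wild type replicate 3. Without it the log2 fold changes were -0.92 for Evpl and -0.53 for Ppl, and the groups of both still did not overlap, as was then so towards lower values for 12.3% of all rows.

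The ratio of Evpl to Ppl counts was 0.749, 0.849 and 0.750 in wild type replicates 1, 2 and 3 and 0.635, 0.642 and 0.561 in knockout replicates 1, 2 and 3, so it was lower in every knockout library. Likeness of profile was measured as the root mean square difference in log2 CPM, with each gene centred on its mean over the 6 libraries. By this measure Ppl was 0.20 from Evpl and ranked 2 of the other 10994 rows, and Evpl ranked 9 from Ppl. The genes outside the set closest to Evpl were Bex1, Npr3 and Llgl2, at 0.18, 0.20 and 0.24. Those closest to Ppl were Bex1, Npr3 and Gal3st1, at 0.13, 0.14 and 0.15. The counts of Bex1 are uncertain, since 44.4% of its words occur in other genes. Npr3 encodes a clearance receptor for natriuretic peptides, and Llgl2 encodes a regulator of epithelial polarity. All of these profiles peaked in wild type replicate 1, where Npr3 stood at 116 CPM against 21.8 to 45.1 CPM in the other libraries.

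Klk8 was the steadiest member within each group. This kallikrein, also called neuropsin, is known from skin and brain. It stood at 20.3, 25.4 and 24.6 CPM in wild type replicates 1, 2 and 3 and at 13.2, 12.5 and 10.6 CPM in knockout replicates 1, 2 and 3. The groups did not overlap, and within a group the highest library was 1.25 (wild type) and 1.24 (knockout) times the lowest. Its means were 23.4 CPM ± 2.77 (SD, n = 3) for wild type and 12.1 CPM ± 1.34 (SD, n = 3) for knockout, a log2 fold change of -0.95 (SE 0.14). Leaving out each library in turn gave -1.05 to -0.87, the narrowest range among the members.

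Part of the Klk8 locus is read from both strands in the annotation. Klk8 (chromosome 7, 43797577 to 43803826, plus strand, GRCm38) overlaps the 5′ end of 2310002F09Rik, a noncoding transcript on the minus strand, and 27.2% of the 31-base words of its transcript also occur in that transcript. Whether the counting used strand is not stated, so reads from the shared stretch cannot be told apart. 2310002F09Rik stood at 9.74, 9.31 and 7.67 CPM with the wild type label and 4.97, 5.70 and 5.60 CPM with the knockout label, again without overlap. Its log2 fold change was -0.72 (SE 0.16), and it ranked 12 of 10994 in likeness to Klk8, at 0.26. The genes closest to Klk8 were Antxrl, Rps27a and Bahcc1, at 0.18, 0.22 and 0.22, each without overlap between the groups. They were picked for likeness to Klk8, so their separation adds no support, and 9.05% of all rows separated towards lower values. Rps27a encodes a ribosomal protein fused to ubiquitin, and 44.0% of its words occur in other genes, so its counts are uncertain.

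The promoter of Klk8 is shown because this gene separated the groups with the smallest spread. It runs from 250 bases before to 50 bases after the start site, chr7:43797327-43797626 on the plus strand, from RefSeq on GRCm38.p6. Of the members, Klk8 and Klk10 matched the promoter table.
Klk8: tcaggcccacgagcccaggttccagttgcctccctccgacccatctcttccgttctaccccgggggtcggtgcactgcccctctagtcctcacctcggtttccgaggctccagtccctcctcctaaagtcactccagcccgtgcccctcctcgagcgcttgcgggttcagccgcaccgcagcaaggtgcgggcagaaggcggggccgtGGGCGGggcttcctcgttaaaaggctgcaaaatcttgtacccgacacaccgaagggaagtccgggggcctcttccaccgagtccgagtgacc
Capitals mark its single match to the GC box GGGCGG, the core bound by Sp1 and related factors, which is found on either strand in 35.7% of 32851 promoters of this length. Neither the NBRE AAAGGTCA, the element that NR4A receptors bind as monomers, nor the AP-1 motif TGANTCA was found in these letters on either strand. Those motifs occur in 1.51% and 7.81% of the promoters.

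Of the other kallikreins of the list, Klk6, Klk7 and Klk14 had rows, and these had the library order of Krt6a. Klk6 is a protease of brain and epithelia and Klk7 a chymotrypsin-like enzyme of skin shedding. Klk6 stood at 35.3, 39.8 and 16.4 CPM in the wild type replicates and 2.79, 3.82 and 26.0 CPM in the knockout replicates. Klk7 stood at 9.50, 10.8 and 4.75 CPM and at 0.903, 0.922 and 9.13 CPM. Klk14 stood at 4.65, 25.0 and 1.08 CPM and at 0.205, 0.713 and 2.37 CPM, with 5 counts in knockout replicate 1, and 22.1% of its words also occur in the antisense transcript 2310002F09Rik. In all 3, as in Krt6a, wild type replicate 2 was highest, with knockout replicates 1 and 2 lowest and knockout replicate 3 above wild type replicate 3. None passed the edgeR test, with log2 fold changes of -1.50 for Klk6 (SE 0.91, adjusted p = 0.58), -1.21 for Klk7 (SE 0.96, adjusted p = 0.63) and -3.26 for Klk14 (SE 1.34, adjusted p = 0.57). Without knockout replicate 3 their groups did not overlap, as was then so towards lower values for 17.9% of all rows. That separation follows from the library order just given.

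Among all other rows of the table, Klk6, Klk7 and Klk14 had the profiles closest to Krt6a, ranking 1, 2 and 3 of 10994 at root mean square differences of 0.49, 0.54 and 0.83. Krt16 and Krt6b followed at ranks 4 and 5, and Spink5, an inhibitor of skin kallikreins, at rank 6. Counted from Krt16 instead, Krt6a ranked 15 and Krt6b 10870 of 10994. The measure grows with the range of a gene, so ranks counted from a wide-ranging gene and from a steady one are not comparable. Outside the set, Krt6b was closest to Klk14, Klk6 and the gene model Gm12366, at 1.15, 1.22 and 1.23. Of the words of Gm12366, 84.2% occur in other genes, so its counts are uncertain too. Krt16 was closest to Stra6, S100a9 and Dsg3, at 0.50, 0.62 and 0.68, all of which peaked in wild type replicate 2. Stra6 encodes a retinol transporter, S100a9 a calcium-binding protein of neutrophils and inflamed epithelium, and Dsg3 a desmosomal cadherin of stratified epithelium. Klk8 lies between Klk9, which had no row, and Klk7 on chromosome 7, 7467 bases from Klk7. Over the 6 libraries the highest level was 2.40 times the lowest for Klk8 and 11.9 times for Klk7.

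**Figure D2:**
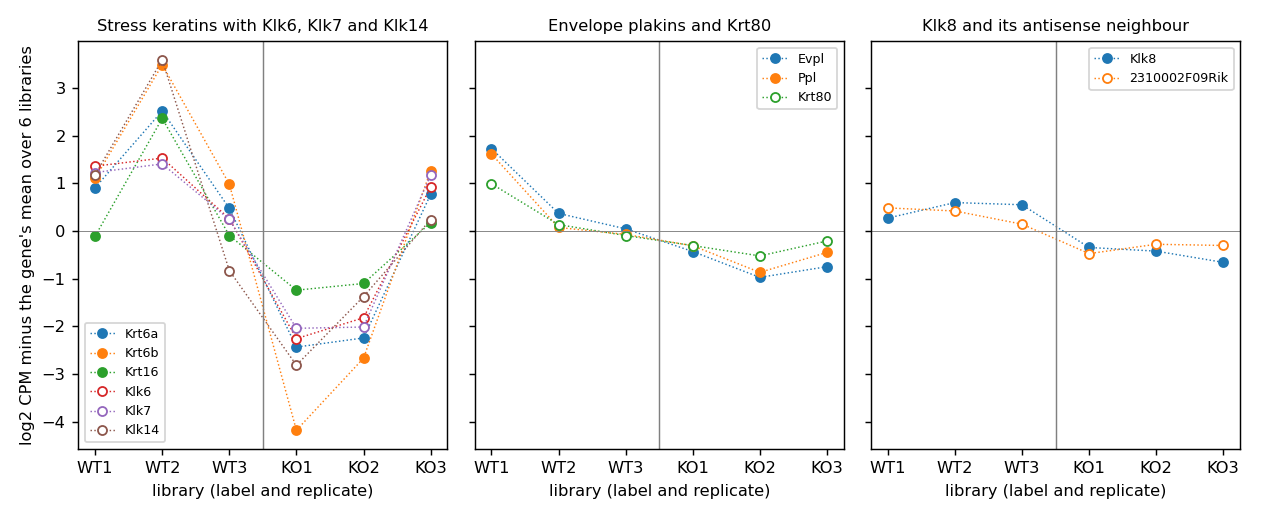
Log2 CPM minus the gene's mean over the 6 libraries, by library, with filled points for members, open points for other genes and dotted lines that only join points of 1 gene. In the left panel knockout replicates 1 and 2 are the low libraries, in the middle panel wild type replicate 1 is the high one, and in the right panel Klk8 and 2310002F09Rik separate the groups, with log2 fold changes of -0.95 and -0.72.

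All 6 listed members had a log2 fold change below 0, as did 50.6% of all rows, and the median was -1.72 against -0.0024 over all rows. In 3 of 6 (Evpl, Ppl and Klk8) the groups did not overlap towards lower values, as was so for 9.05% of all rows, and 8.39% were without overlap towards higher values. Since the members were chosen on this contrast, neither count supports a difference. The edgeR test called 0 genes higher (0.0%) and 0 lower (0.0%) among 10995 at an adjusted p of 0.05, with 866 (7.88%) at an unadjusted p under 0.05. DESeq2 called 64 higher (0.582%) and 39 lower (0.355%), and limma-voom called 0.

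**Figure D3:**
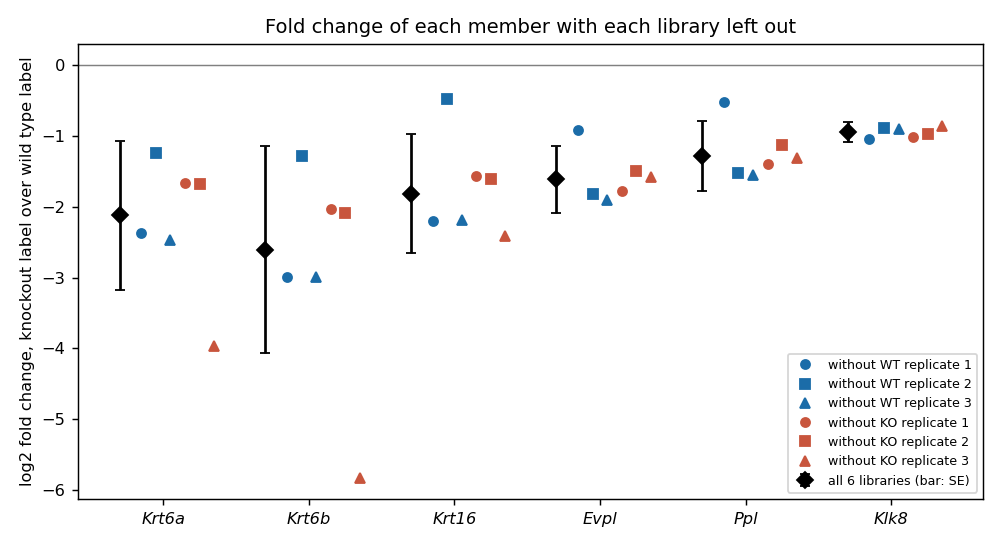
Log2 fold change of each listed member, knockout label over wild type label, with all 6 libraries (black, bar for the SE) and with each library left out in turn (colored points). Krt6b spans -5.83 to -1.28, Evpl and Ppl come closest to 0 without wild type replicate 1, and Klk8 stays between -1.05 and -0.87.

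Other genes of squamous differentiation were taken from lists that were put together by function. Of 38 genes of the cornified envelope and barrier, 6 had rows, 0 passed the edgeR test in either direction, 4 lay below 0 and the median log2 fold change was -0.41. Tgm1, the transglutaminase that crosslinks the envelope, averaged 21.1 CPM ± 3.97 (SD, n = 3) in the wild type group and 15.4 CPM ± 5.07 (SD, n = 3) in the knockout group, and its difference did not pass (edgeR adjusted p = 0.58). Knockout replicate 3 was again the highest of the knockout libraries, at 21.0 CPM. Anxa1, an envelope-associated annexin, averaged 839 CPM ± 204 (SD, n = 3) for wild type and 548 CPM ± 45.2 (SD, n = 3) for knockout, without overlap, and did not pass (edgeR adjusted p = 0.57). S100a14 averaged 9.28 CPM ± 2.86 (SD, n = 3) for wild type and 6.76 CPM ± 3.92 (SD, n = 3) for knockout, with overlap (edgeR adjusted p = 0.70). Anxa1 was the 1 of 6 without overlap towards lower values, against 9.05% of all rows. Involucrin, loricrin, filaggrin and the listed small proline-rich genes had no row.

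Of 17 other plakin and desmosome genes, 13 had rows, 0 passed in either direction, 10 lay below 0 and the median was -0.10. The desmosomal genes Dsg3, Dsc2 and Pkp3 had the largest differences, with log2 fold changes of -0.61 for Dsg3 (SE 0.45), -0.59 for Dsc2 (SE 0.16) and -0.33 for Pkp3 (SE 0.14), and none of these passed (edgeR adjusted p = 0.61, 0.57 and 0.57). Dsc2 and Pkp3, 2 of the 13, had groups without overlap towards lower values, against 9.05% of all rows. The other plakins Dsp, Plec, Dst, Macf1 and Eppk1 had log2 fold changes between -0.28 and 0.087, against -1.62 and -1.28 for Evpl and Ppl, and all overlapped between the groups.

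Of 22 other keratins, 8 had rows, 0 passed in either direction, all 8 lay below 0 and the median was -0.50. Krt80, a keratin of differentiating epithelium, stood at 69.2, 38.1 and 32.5 CPM in the wild type replicates and 28.1, 24.1 and 30.0 CPM in the knockout replicates, with wild type replicate 1 high as in Evpl and Ppl. The luminal keratins Krt7 and Krt19 stood at 886 and 91.0 CPM with the wild type label and 596 and 63.8 CPM with the knockout label. None of these 3 passed (edgeR adjusted p = 0.57 for each). They were the 3 of 8 whose groups did not overlap towards lower values, against 9.05% of all rows. Krt5 and Krt14, of the basal layer, overlapped, with log2 fold changes of -0.16 (SE 0.35) and -0.51 (SE 0.37). Krt14 was highest in wild type replicate 2, at 902 CPM, and knockout replicate 3 followed at 726 CPM, the libraries in which the stress keratins were high within their groups.

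Among 22 regulators of squamous and barrier genes, 19 had rows, 0 passed in either direction, 13 lay below 0 and the median was -0.26. Grhl1, a transcription factor of desmosomal and barrier genes, stood at 33.5, 11.1 and 8.001 CPM in the wild type replicates and 4.97, 3.82 and 13.3 CPM in the knockout replicates. Klf4, a factor of terminal epidermal differentiation, stood at 51.5, 43.2 and 17.3 CPM and at 13.5, 13.2 and 25.3 CPM. In both, knockout replicates 1 and 2 lay below all wild type libraries and knockout replicate 3 did not, and neither difference passed (edgeR adjusted p = 0.58 and 0.57). Elf3, an epithelial ETS factor, averaged 23.6 CPM ± 9.40 (SD, n = 3) for wild type and 12.4 CPM ± 2.38 (SD, n = 3) for knockout, without overlap (edgeR adjusted p = 0.57). Of the 19 regulators, 2 (Elf3 and Notch1) were without overlap towards lower values, against 9.05% of all rows. Trp63, the master factor of stratified epithelia, stood at 32.4, 86.2 and 64.6 CPM and at 69.9, 60.6 and 117 CPM, with its lowest library in the wild type group and its highest in knockout replicate 3. Of the list of other kallikreins, inhibitors and targets, 12 of 21 had rows, 0 passed in either direction and 9 lay below 0, with a median of -0.42. Spint2 and St14 were without overlap towards lower values, and Serpina3n towards higher values, against 9.05% and 8.39% of all rows. Spink5 stood at 8.92, 10.8 and 9.98 CPM and at 2.14, 1.38 and 20.3 CPM, so that knockout replicate 3 was its highest library and knockout replicates 1 and 2 its lowest. F2rl1, the protease-activated receptor that kallikreins can cleave, had log2 fold change -1.04 (SE 0.49, edgeR adjusted p = 0.57).

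The arrangement seen in the keratins was counted in each list after it had been seen in the data, and no test was made. It held for 6 of 12 genes of the kallikrein list, namely Klk6, Klk7, Klk14, Spink5, Prss8 and F2rl1. It held for 7 of 19 regulators, 3 of 13 plakin and desmosome genes, 2 of 8 other keratins and 2 of 6 envelope genes, where 8.84% of all rows had it. Among the 12 general epithelial markers it held for 5, namely Epcam, Cdh1, Esrp1, Elf5 and Ehf, so it was not particular to squamous genes.

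**Figure D4:**
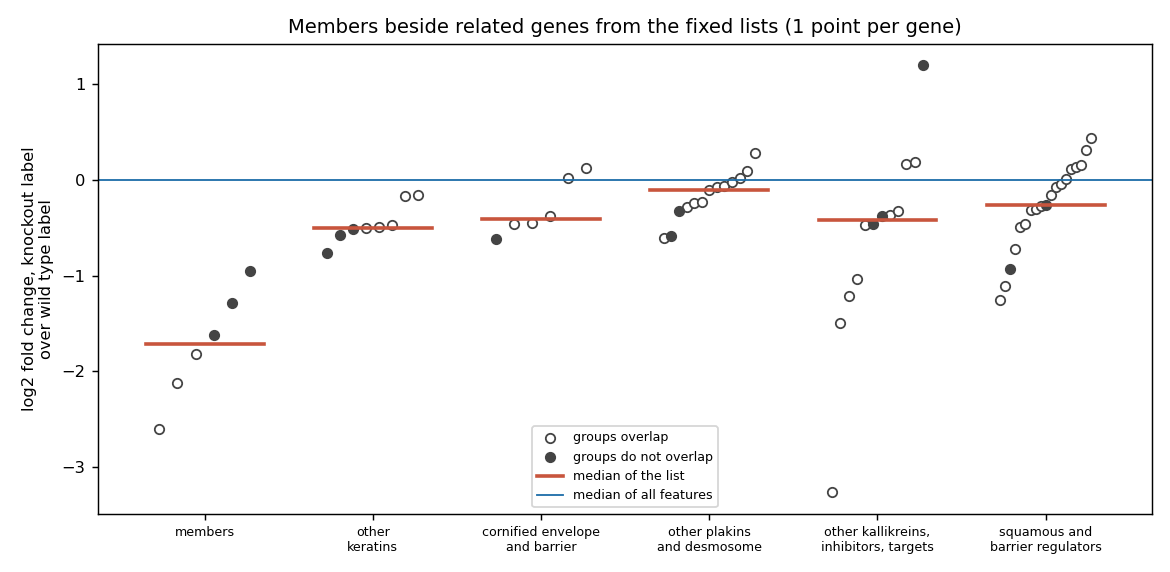
Log2 fold change, knockout label over wild type label, of the 6 listed members and of each related gene with a row (1 point per gene), with filled points where the groups did not overlap. The red lines mark the list medians, from -1.72 for the members to -0.10 for the plakin and desmosome list, and the blue line the median of all rows, at -0.0024.

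Markers of other cell types were set beside these values. No gene of these lists passed the edgeR test, the smallest adjusted p being 0.29 for Fabp4, while DESeq2 called Fabp4, Esam, Rgs5, Abcc9, Mylk and Col6a3 higher (adjusted p = 2.9e-16 for Fabp4 and 0.00031 for Esam) and the epithelial keratin Krt7 lower. The summed levels did not overlap between the groups for the macrophage, pericyte, endothelial and adipocyte lists, and overlapped for the fibroblast, basal and neutrophil lists. All 12 epithelial markers had a log2 fold change below 0, with a median of -0.47. In 5 of these 12 the groups did not overlap towards lower values, as was so for 9.05% of all rows. Of 7 listed fibroblast markers all had a log2 fold change above 0, and their summed level was 1603 to 4111 CPM with the wild type label and 3645 to 6310 CPM with the knockout label. Macrophage markers were above 0 in 9 of 10, with sums of 817 to 953 CPM and 1160 to 1324 CPM, and pericyte markers in 4 of 5, with sums of 171 to 295 CPM and 307 to 486 CPM. Basal and myoepithelial markers were above 0 in 6 of 9, with sums of 1126 to 2930 CPM and 2168 to 2612 CPM. Esam, the 1 of 7 endothelial markers with a row, stood at 2.28 to 4.59 CPM and 10.7 to 17.8 CPM, and Fabp4, the 1 of 6 adipocyte markers, at 2.45 to 4.27 CPM and 26.6 to 78.1 CPM. Of the neutrophil markers S100a8 and S100a9 had rows, summing to 24.2 to 58.3 CPM and 33.8 to 85.7 CPM, and 0 of 9 T and B cell markers had one. The part of these cells in the results was not tested. Relative to the mean log2 CPM of the 12 epithelial markers, whose own difference was -0.50 without overlap, the difference of Evpl was -0.93 and that of Klk8 was -0.45. On that scale, an alternative chosen after seeing the data, Evpl kept groups without overlap, while Klk8 and Ppl did not. The differences of Krt6a, Krt6b and Krt16 were -2.10, -3.22 and -0.94. These are differences between group means of log2 CPM, so they cannot be set against the fitted log2 fold changes given above. Each is smaller in size than the same gene's unadjusted difference in mean log2 CPM, by the markers' own difference.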

How the data were processed

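RNA-seq counts of 6 libraries, 3 labelled wild type and 3 labelled knockout, were analysed. The authors deposited raw read counts per gene symbol without normalization, on GRCm38 (mm10), with CASAVA 1.8, HISAT2 and featureCounts, per the submitters' processing notes. Strand setting, treatment of multiply aligned reads and annotation release are not stated. The highest count of each row was at least 133, so low genes had been left out before. In 16 rows the symbol had become a date.

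Counts were fitted with edgeR 4.0.16 in R 4.3.3 (filterByExpr, which removed 0 rows, TMM scaling, robust quasi-likelihood F test, group as the only term, Benjamini-Hochberg adjustment over all rows at 0.05). DESeq2 1.42.0 and limma-voom (limma 3.58.1) were alternatives, beside other scalings and filters, the replicate number as a block, and each library left out. Profiles were compared on log2 CPM with a prior count of 2. Positions, exon lengths and shared 31-base words came from GENCODE M21 on GRCm38, with Python 3.11.15. The tests were run on simulated counts, where the requirement set was only on the direction of planted changes. That check cannot decide between the numbers of genes that edgeR and DESeq2 called. No pair of libraries agreed within counting noise (smallest chi-square per degree of freedom 23.3).

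The members and lists were chosen with earlier results of these data known. The text names the members, the 3 genes of each list with the largest absolute log2 fold change (where 0 passed), the 3 closest profiles per member and Nr4a1. Any further gene was picked with its values in view.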

Additional observations from a re-analysis of the deposited data

How the results depend on the processing

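With DESeq2 as the test, the count of genes called went from 0 to 103, and that of genes called in the 5 related lists from 0 to 1, the keratin Krt7 (log2 fold change below 0). Under the other scalings, the other filters, limma-voom and an adjusted p of 0.1, both counts stayed at 0 where they were run. With each library left out in turn, edgeR called 0 genes, except 2 without wild type replicate 2, and 0 list genes in every case. The number at an unadjusted p under 0.05 went from 866 to 513 without knockout replicate 1, 388 without knockout replicate 2 and 1365 without wild type replicate 2. Leaving out a library moved the DESeq2 calls between 25 higher with 11 lower (knockout replicate 2 left out) and 250 higher with 168 lower (wild type replicate 2 left out). The cause was not tested.

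The median log2 fold change of the listed members was -1.72, -2.05 to -1.26 with each library left out, and -1.43 with the replicate block. The same-numbered libraries did not all deviate together (r = -0.11, 0.35 and -0.25 across 10995 genes), and pairs of unlike number ranged from -0.33 to 0.35. Each gene was centred within its group first, which constrains these values, so they cannot decide whether the numbers pair libraries. The labels state no pairing, and the number was taken only as a name. The block gave 0 calls and 862 genes at an unadjusted p under 0.05. Each member kept its direction under all settings run. The log2 fold change of Nr4a1 was 0.31 to 0.88 with each library left out and 0.55 with the replicate block, and 0.52 with scaling by library size alone. List medians, which were recomputed as an alternative chosen after seeing the data, kept their direction. The differences relative to epithelial markers were computed with all libraries only and were negative for every listed member. The count of members whose groups did not overlap, also added later, was 3 of 6 with all libraries (9.05% of all rows), 6 without knockout replicate 3 (17.9%) and 4 without wild type replicate 3 (14.1%). It was 3 when replicate 1 or 2 of the wild type label was left out (12.3% and 16.6%), and 3 when replicate 1 or 2 of the knockout label was (13.5% and 12.0%). Low counts limit Krt6b and Klk14 in knockout replicate 1, at 5 counts each. In knockout replicate 2 these genes had 18 and 17 counts, and Klk14 had 23 in wild type replicate 3. Klk7 had 22 in each of knockout replicates 1 and 2, and S100a9 stood at 0.606 to 0.629 CPM in the knockout libraries.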
